A study of Mus musculus with 7 samples.

Results

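Colony-stimulating factor and cytokine receptors are the surface proteins through which marrow cells read the growth factors and inflammatory cytokines around them. The 10 genes described here are Csf1r, Csf2ra, Csf2rb, Csf2rb2, Csf3r, Il3ra, Il4ra, Il6ra, Ifngr1 and Ifnar1. They were listed by name, with earlier results of these data known, and are 10 of the 31053 genes counted. All 10 were found in each of the 7 libraries. Whole bone marrow of mice had been profiled by droplet single-cell RNA sequencing of transcript 3′ ends, with several samples pooled in a library and told apart by hashtag antibodies. The series title concerns plasticity of tumours under inflammation as myeloid cells transform.

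Hashtag names gave the groups, which were WTY (3 samples), WTO (4), HRY (3), HRO (6) and the pair HRO.5 and HRO.6. The series text names that pair as chronic samples with mutated TET2, and the group is called chronic below. Genotype, treatment and age were not given for the other names, so the prefixes serve as bare names. 2 further hashtags, HR.7 and HR.AE, belong to no group and entered no comparison. The labels do not say whether each hashtag was a separate animal, so each p-value reflects only how these hashtag samples vary, which may be technical.

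Csf1r is a receptor tyrosine kinase for CSF1 and IL-34 and sustains monocytes and macrophages. Csf3r, the G-CSF receptor, drives neutrophil production and signals as a pair of identical chains. The GM-CSF and IL-3 receptors each join a specific alpha chain, Csf2ra or Il3ra, to a beta chain, Csf2rb, and mice carry a further IL-3-specific beta chain, Csf2rb2. Il4ra binds IL-4 and pairs with Il2rg or with Il13ra1, Il6ra passes IL-6 to the signalling chain Il6st, and Ifngr1 and Ifnar1 are chains of the receptors for interferon gamma and type I interferon. Apart from Csf1r, these receptors work through JAK kinases and STAT factors, and SOCS proteins switch the signal off.

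In GENCODE M21 on GRCm38, the annotation used here to locate the genes, all 10 are protein-coding. Csf2rb lay at chr15:78325752-78353847 on the plus strand, and its paralog Csf2rb2 at chr15:78282507-78305721 on the minus strand. Il4ra lay at chr7:125552120-125579474, Il6ra at chr3:89864059-89913196, and Csf3r at chr4:126024550-126044440. The other genes lay on chromosomes 18 (Csf1r), 19 (Csf2ra), 14 (Il3ra), 10 (Ifngr1) and 16 (Ifnar1). Il3ra, Il4ra and Il6ra each overlap 1 gene on the opposite strand and Csf1r overlaps Hmgxb3 there, and strand use in the counting was not given in the sources used here.

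Reads of near-identical copies can be assigned to either gene, so the Csf2rb and Csf2rb2 transcripts were compared in windows of 98 bases, the length of the transcript read. Of 4803 windows of the longest Csf2rb transcript, 345 (7.18%) occurred unchanged in a Csf2rb2 transcript. None of the 403 windows in the last 500 bases did, in either direction. Both genes are still given as uncertain, since reads can also start further upstream and mapping tolerates mismatches.

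Stretches upstream of 3 genes that differed between groups in monocytes are shown, because these members moved in the same cells. They are from RefSeq (GRCm38.p6), in the direction of the gene and outside the annotated gene body, and capitals mark matches to the motifs searched. The Csf2rb2 stretch is chr15:78305722-78305971 (minus strand), the Il6ra stretch chr3:89913197-89913446 (minus strand) and the Il4ra stretch chr7:125552021-125552119 (plus strand).
Csf2rb2: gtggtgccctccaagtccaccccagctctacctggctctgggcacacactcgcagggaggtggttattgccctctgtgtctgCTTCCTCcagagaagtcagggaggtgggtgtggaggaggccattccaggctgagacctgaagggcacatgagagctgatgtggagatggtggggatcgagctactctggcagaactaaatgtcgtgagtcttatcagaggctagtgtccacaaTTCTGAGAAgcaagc
Il6ra: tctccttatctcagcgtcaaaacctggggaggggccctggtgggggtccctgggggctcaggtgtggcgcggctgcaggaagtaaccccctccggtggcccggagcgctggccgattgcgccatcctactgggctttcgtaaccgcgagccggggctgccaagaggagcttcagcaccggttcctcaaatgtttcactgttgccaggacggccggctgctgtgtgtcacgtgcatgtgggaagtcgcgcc
Il4ra: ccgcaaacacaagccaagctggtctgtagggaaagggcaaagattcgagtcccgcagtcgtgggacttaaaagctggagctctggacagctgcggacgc

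3 motifs were searched on both strands in the 250 bases before each start: the STAT palindrome TTCNNNGAA, the STAT6 form with 1 more base between TTC and GAA, and GAGGAAG, a core bound by PU.1 and related ETS factors. They were present in 7.02%, 5.85% and 10.6% of 32851 promoters. Among the 8 receptor promoters in the table, the STAT palindrome occurred in 1, Csf2rb2, where it starts 15 bases before the transcript start. The ETS core occurred in 3, those of Csf2rb2, Csf2ra and Csf3r, and the STAT6 form in 0. A match describes letters only, and the windows of Il6ra and Il4ra held none of the 3 patterns.

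From 78720 barcodes, 57982 hashtag singlets and then 43062 cells were kept, from libraries of 25343305 to 95553827 UMIs, with 928 (WTY.4) to 5530 (HRO.7) cells in a sample. Cells were clustered without the 10 receptors, and clusters took a class name from marker genes that exclude them, which gave 13 classes. Each name stands for cells that resemble the class by its markers, and 1 cluster of 2124 cells between immature and mature neutrophils stayed unnamed. Monocyte clusters followed both pool and group. Monocytes of HRO.7 and HRO.8 fell almost wholly into cluster 12, and those of the WBM_1 samples mostly into cluster 10. Within WBM_2, cluster 11 held 72.3% of HRO.9 monocytes and 0.63% of those of WTO.4, and cluster 9 held 2.97% and 43.2%. Within WBM_4, cluster 11 held 44.5% and 59.9% in HRO.11 and HRO.12 against 34.6% and 29.3% in WTO.5 and WTO.6. Cluster 9 held 3.79% and 3.49% against 22.2% and 28.3% in the same samples. Within WBM_3, cluster 9 held 3.12% of HRO.10 monocytes and 31.4% and 44.7% of those of HRY.5 and HRY.6. The part of this make-up in the receptor differences was not tested. HRO samples exist in pools WBM_2, WBM_3 and WBM_4 and the chronic pair in WBM_1 alone. Of the libraries, the pair WBM_3a and WBM_3b shared 2078 barcodes, and the lower copy of each shared singlet was dropped.

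Markers of sex also differed between groups. The Y-linked gene Ddx3y was at 0.0751 to 2.38 CPM over all cells in 5 of 6 HRO samples and at 51.5 in HRO.9, and at 42.1 to 47.5 in 3 of 4 WTO samples and at 1.5 in WTO.4. It was at 45.6 to 73.8 CPM in all 3 HRY samples. In WTY.3 it was at 1.34, in WTY.4 and WTY.5 at 84.3 and 90.2, and in HRO.5 and HRO.6 at 1.04 and 42.4. The female marker Xist was also present in HRO.6, HRY.4 and WTO.3 of WBM_1, at 41.5, 63.1 and 66.0 CPM. The Ddx3y-high samples of groups in other pools had 2.68 to 5.32. A yes or no Ddx3y term does not capture this, and its cause was not tested. In WBM_3 (HRO.10 against HRY.5 and HRY.6) and in WBM_4 (HRO.11 and HRO.12 against WTO.5 and WTO.6) Ddx3y status and group coincide and cannot be told apart.

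Levels are UMIs summed over the cells of a class in a sample and given as CPM, counts scaled to a common library total, for samples with at least 20 such cells. Because 3′ UMI counts depend on the gene, levels are compared between classes and samples and not between receptors. Classes were made from the same cells, so the order of classes is a description with no test.

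Csf1r was highest in nonclassical monocytes, the patrolling Ly6C-low cells, at 605 ± 163 CPM (SD, n = 8), followed by macrophages at 472 ± 79.7 (n = 5), a gap smaller than the larger SD. Monocytes followed at 211 ± 47.8 (n = 19), below macrophages by more than the larger SD, and immature neutrophils were lowest at 3.22 ± 3.21 (n = 19). Csf3r was highest in mature neutrophils, at 854 ± 562 CPM (n = 19). That level was above the 132 ± 53.9 of nonclassical monocytes (n = 8) by more than the spread. Progenitors (84.6 ± 27.5), monocytes (77.2 ± 29.3) and immature neutrophils (75.3 ± 13.5) followed within their spread of each other.

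**Figure D1:**
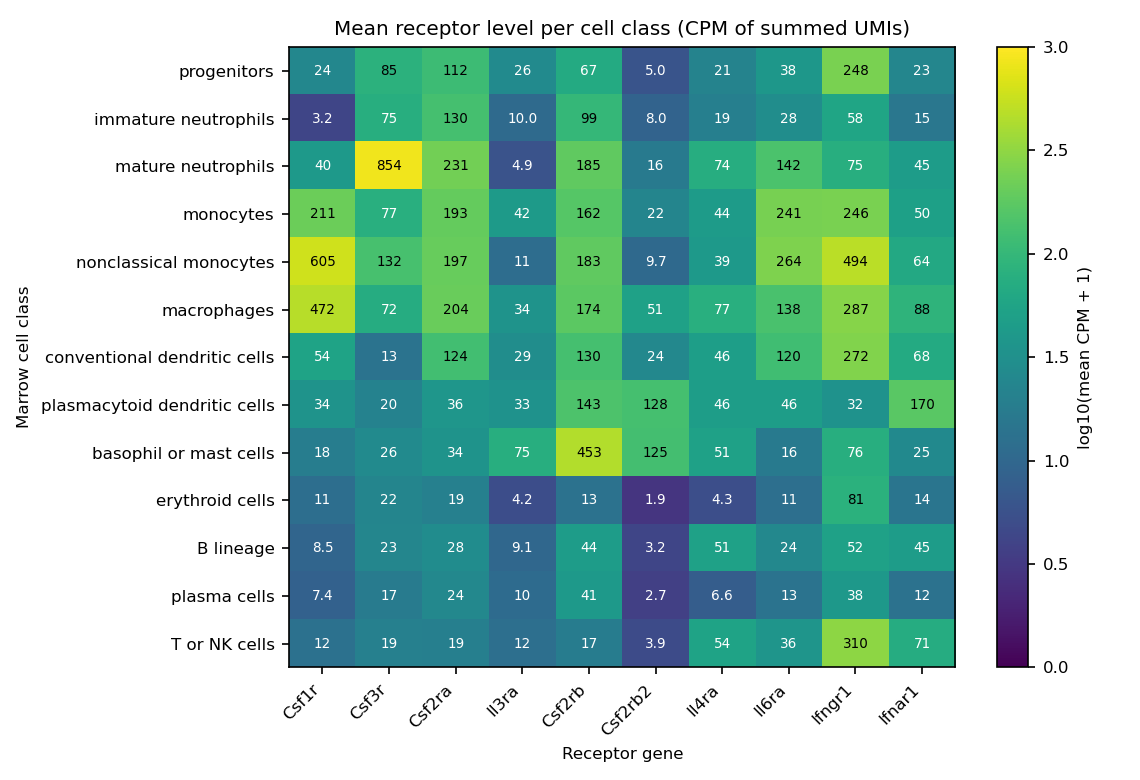
Mean level of the 10 receptors (columns) in 13 marrow cell classes (rows), printed as CPM and coloured by log10(mean CPM + 1), over the hashtag samples that had 20 or more such cells. Csf1r peaks at 605 CPM in nonclassical monocytes, Csf3r at 854 in mature neutrophils and Csf2rb at 453 in basophil or mast cells.

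The chains of the GM-CSF and IL-3 receptors did not share 1 pattern. Csf2ra was spread over the myeloid classes, with 231 ± 111 CPM in mature neutrophils, 204 ± 52.9 in macrophages, 197 ± 77.5 in nonclassical monocytes and 193 ± 55.5 in monocytes, none of them apart by more than the larger SD of neighbours. Csf2rb was highest in basophil or mast cells at 453 ± 187 CPM (n = 8), above the 185 ± 87.0 of mature neutrophils by more than the spread. Il3ra led in the same cells at 74.8 ± 29.3 CPM, followed by monocytes at 41.8 ± 13.9. Csf2rb2 was highest in plasmacytoid dendritic cells (128 ± 103 CPM, n = 10) and in basophil or mast cells (125 ± 66.5), which were not apart, and only 51.2 ± 27.0 in macrophages, the next class. The basophil or mast value of Csf2rb ran from 251 (HRY.4) to 829 CPM (HR.AE), and HR.AE supplied 1394 cells of that class. The class joins cluster 13, led by Cpa3 and Cma1, which came wholly from WBM_2 and 94.6% from HR.AE, with cluster 32, led by Prss34 and Mcpt8.

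Among the cytokine receptors, Il6ra was highest in nonclassical monocytes (264 ± 112 CPM) and monocytes (241 ± 91.1), which did not differ beyond their spread. Ifngr1 was highest in nonclassical monocytes (494 ± 217 CPM), followed by T or NK cells (310 ± 113). Ifnar1 was highest in plasmacytoid dendritic cells, the main producers of type I interferon, at 170 ± 96.9 CPM (n = 10), next to macrophages at 87.7 ± 14.8. The plasmacytoid values ran from 53.1 in HRO.6 to 320 in HRO.7, so this gap was within the spread. For Il4ra, 9 classes lay between 39.4 and 77.4 CPM and 4 lower, down to 4.27 in erythroid cells, and the order was led by macrophages (77.4 ± 21.8) and mature neutrophils (73.5 ± 40.7). Under the per-cell gate and at the finer clustering resolution, the highest class moved from mature neutrophils to nonclassical monocytes or macrophages for Csf2ra, to basophil or mast cells for Csf2rb2, and to mature neutrophils for Il4ra.

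Shares of cells with at least 1 UMI were compared after each cell was thinned to 1000 UMIs, beside erythroid cells, where the 3 receptors compared here were low. Erythroid cells are no such background for Ifngr1, which was at 81.3 ± 26.2 CPM there. Csf1r was found in 50.6% ± 8.89 (n = 5) of nonclassical monocytes, Csf3r in 47.1% ± 18.5 (n = 19) of mature neutrophils and Csf2rb in 42.6% ± 9.36 (n = 7) of basophil or mast cells. The same shares in erythroid cells (n = 10) were 1.78% ± 2.32, 3.01% ± 3.24 and 2.56% ± 2.68. Without thinning the first 3 shares were 71.1%, 66.0% and 81.6%. Thinning left out 15.6% of nonclassical monocytes, 15.9% of mature neutrophils, 1.84% of basophil or mast cells and 1.42% of erythroid cells, whose median depths were 2108, 1890.5, 15086 and 11434 UMIs.

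Progenitors carry Csf1r or Csf3r as they turn to the monocyte or the neutrophil line. After thinning, Csf3r without Csf1r was found in 7.40% ± 3.36 of progenitors (n = 19 samples), Csf1r without Csf3r in 2.09% ± 2.30 and both in 0.0623% ± 0.197. Without thinning these shares were 45.1% ± 15.0, 9.65% ± 9.74 and 7.61% ± 5.70, so the share with both depends strongly on depth. Csf1r without Csf3r was found after thinning in 6.31% of progenitors in HRY.4, 6.22% in WTY.3, 5.08% in HRO.6, 4.71% in WTO.3 and 1.48% in HRO.5, the samples of WBM_1, and in 0 to 4.55% elsewhere. On the CPM scale Csf1r in progenitors was 51.7 to 65.7 in the 5 samples of pool WBM_1 and 1.35 to 30.6 in the 14 others, so these did not overlap. Csf3r in progenitors was 55.8 to 64.2 CPM in WBM_1 and 57.3 to 132 elsewhere. Cluster make-up of the class differed too. Cluster 17 held 75.7% (HRO.5) to 90.8% (WTY.3) of WBM_1 progenitors and 0.714% (HRO.11) to 10.7% (HRO.10) in the 14 other samples. Cluster 22 held 38.6% (HR.7) to 80.0% (HRO.11) in those 14 and at most 1.47% (HRO.5) in WBM_1. The part of this make-up in the pool differences was not tested.

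For each receptor, the genes with the most similar level over 159 class-by-sample sums in 13 classes were found among 10709 genes. The points share samples, pools and cell classes, so each Pearson r of log2(CPM + 1) is a description. Csf1r was most like Clec4a3 (r = 0.858), Pid1 and Clec4a1, and Csf3r most like Gda (0.886), Msrb1 and Pygl. Csf2rb was most like Spi1, the gene of PU.1 (0.819), Sirpa and Nfam1, and Csf2ra most like Fgd4 (0.847), Igsf6 and Rab32. The gene most like Csf2rb2 was Csf2rb (0.71). For the others the closest were Rnh1 for Il3ra (0.681), Ncoa3 for Il4ra (0.751), Tpd52 for Il6ra (0.775), Tnfrsf1b for Ifngr1 (0.676) and Smad4 for Ifnar1 (0.762).

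Groups were then compared within classes by edgeR's quasi-likelihood test on summed counts, with pool as a term and Benjamini-Hochberg adjustment over all genes tested in the class at 0.05. In monocytes of HRO against WTO, 4 of 10 receptors passed, 3 higher and 1 lower, against 7.35% of all genes tested in that comparison. The receptors were chosen with earlier results of these data known, so such counts beside the share of all genes are a description. Csf2rb, Csf2rb2 and Il4ra were higher in HRO and Il6ra was lower. The members' median log2 fold change was 0.04, beside 0.02 over all genes.

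Il4ra, the IL-4 receptor alpha chain, changed most. Its level in HRO monocytes was 40.7 at the lowest, 68.8 at the median and 101 CPM at the highest (mean 67.8 ± 21.5, n = 6). In WTO it was 38.0 (WTO.3), 33.8 (WTO.4), 14.7 (WTO.5) and 19.0 CPM (WTO.6). Every HRO sample was above every WTO sample. The log2 fold change was 1.40 ± 0.20 (SE), 2.63-fold, with an adjusted p of 0.000909 by edgeR's quasi-likelihood test.

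Csf2rb, the shared beta chain of the GM-CSF, IL-3 and IL-5 receptors, was at 162, 212 and 289 CPM (lowest, median and highest) in HRO monocytes. It was at 149, 143, 84.2 and 122 CPM in WTO.3, WTO.4, WTO.5 and WTO.6. The groups did not overlap, and the log2 fold change was 0.76 ± 0.14 (1.70-fold, adjusted p = 0.00449). Csf2rb2, the beta chain that serves IL-3 alone, was at 24.0, 34.0 and 55.1 CPM in HRO. It was at 21.7, 18.4, 15.8 and 12.1 CPM in the same WTO samples. Again the groups did not overlap, and the log2 fold change was 1.19 ± 0.27 (2.29-fold, adjusted p = 0.0159).

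Il6ra, the IL-6-binding chain, was at 138, 171 and 276 CPM in HRO and at 223, 247, 182 and 202 CPM in WTO.3 to WTO.6. These ranges overlapped, and HRO.9 and HRO.10 lay among or above the WTO samples. The fitted log2 fold change was -0.37 ± 0.10 (0.773-fold), with an adjusted p of 0.0311.

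The same order held inside the pools that hold both groups. In WBM_2, Il4ra was at 66.0 to 79.0 CPM in HRO.7, HRO.8 and HRO.9 against 33.8 in WTO.4, and in WBM_4 at 40.7 and 48.9 in HRO.11 and HRO.12 against 14.7 and 19.0 in WTO.5 and WTO.6. Csf2rb was at 191 to 247 against 143 CPM in WBM_2 and at 162 and 180 against 84.2 and 122 in WBM_4. Csf2rb2 was at 26.3 to 55.1 against 18.4 CPM in WBM_2 and at 24.0 and 32.9 against 15.8 and 12.1 in WBM_4. Il6ra was lower in HRO in both pools, at 169 to 229 against 247 CPM in WBM_2 and at 138 and 146 against 182 and 202 in WBM_4.

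**Figure D2:**
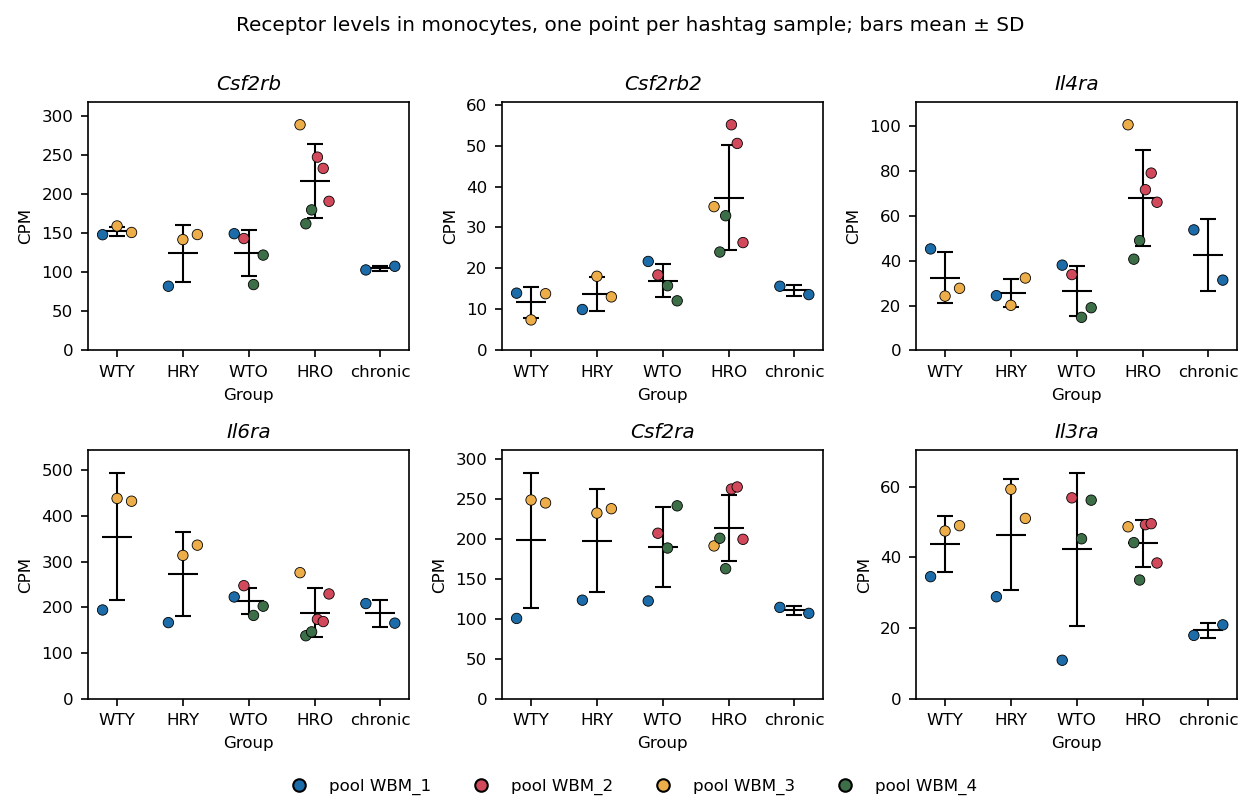
Level of 6 receptors in monocytes (CPM, vertical axes from 0) by group, 1 point per hashtag sample coloured by pool, with the group mean and SD as bars. HRO samples lie above all WTO and HRY samples for Csf2rb, Csf2rb2 and Il4ra. For Il4ra, the highest WTY sample and HRO.5 of the chronic pair lie above the lowest HRO sample. Csf2ra is low (100 to 123 CPM) in the 5 samples of pool WBM_1 whatever their group.

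These calls rest on the pool term: without it 0 of 10 receptors passed, and 62 genes in all passed in place of 759. The number of genes passing also moved with single samples, to 48 of 10227 without WTO.4, to 1551 of 10228 without HRO.9, and to between 440 and 505 without any one of WTO.3, HRO.7, HRO.8, HRO.10 and HRO.12. Leaving out WTO.4 left 1 receptor, Il4ra. Leaving out all of WBM_1, added after the data were seen, left Csf2rb and Il4ra, beside 411 of 10403 genes. Il4ra passed in 28 of the 29 alternatives, Csf2rb in 27, Csf2rb2 in 25 and Il6ra in 16. Without HRO.7 and HRO.8, whose monocytes form their own cluster, the first 3 still passed, beside 621 of 9787 genes.

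With Ddx3y status as a term, the log2 fold changes were 1.25 for Il4ra (adjusted p = 0.00112 by edgeR), 0.66 for Csf2rb (0.0185) and 1.02 for Csf2rb2 (0.0438), and -0.29 for Il6ra, which no longer passed (0.103). HRO.7, HRO.8 and WTO.4 are all low in Ddx3y and share pool WBM_2. Il4ra was at 71.6 and 79.0 CPM in this HRO pair against 33.8 in WTO.4, and Csf2rb at 247 and 233 against 143.

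Markers of other cell types in the monocyte sums were as follows. The summed 8 basophil or mast markers were at 1.89 to 67.3 CPM in HRO and 0.865 to 57.1 in WTO, and the 9 conventional dendritic markers at 127 to 3773 CPM in HRO and 254 to 1596 in WTO. Both ranges overlap. The 8 nonclassical monocyte markers did not overlap, at 270 to 360 CPM in HRO and 411 to 567 in WTO. The part of these cells in the receptor differences was not tested.

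The other alpha and cytokine chains did not pass in HRO against WTO monocytes. Csf2ra, the partner of Csf2rb for GM-CSF, was at 213 ± 41.2 CPM in HRO and 190 ± 50.1 in WTO (log2 -0.01 ± 0.14). Il3ra was at 43.9 ± 6.63 and 42.3 ± 21.6 CPM (log2 -0.13 ± 0.19). Csf1r was at 176 ± 24.1 and 221 ± 75.6 CPM (log2 -0.14 ± 0.12), Ifngr1 at 223 ± 55.5 and 222 ± 34.6, and Ifnar1 at 54.7 ± 10.7 and 41.2 ± 10.9. Csf3r was at 51.4 ± 12.7 and 73.7 ± 22.6 CPM, with a log2 fold change of -0.34 ± 0.13 and an adjusted p of 0.120.

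HRO against HRY shares the HRO samples with the comparison above. 3 of 10 receptors passed in monocytes, all higher in HRO, against 3.54% of genes. Il4ra was at 24.4, 20.1 and 32.3 CPM in HRY.4, HRY.5 and HRY.6, below every HRO sample, and its log2 fold change was 1.99 ± 0.26 (adjusted p = 0.000472). Csf2rb was at 82.1, 142 and 148 CPM in HRY, also below every HRO sample (log2 1.23 ± 0.19, adjusted p = 0.00245). Csf2rb2 was at 9.99, 18.1 and 13.1 CPM in HRY, again with no overlap (log2 1.54 ± 0.38, adjusted p = 0.0373). Only WBM_3 holds both groups, with HRO.10 as its 1 HRO sample, and without HRO.10 no receptor passed. Without the pool term, Csf2rb2 alone passed. With Ddx3y status as a term, Il4ra (log2 1.66, adjusted p = 0.00286 by edgeR) and Csf2rb (1.08, 0.0173) passed and Csf2rb2 (1.12, 0.232) did not.

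HRY against WTY gave 0 of 10 receptors in monocytes by edgeR's quasi-likelihood test and 0 by DESeq2, against 0% of genes passing. At an unadjusted p under 0.05 there was 1 receptor, beside 609 of 10333 genes. The receptor was Il6ra, at 166, 314 and 336 CPM in HRY and 194, 438 and 432 in WTY (log2 -0.34 ± 0.11, adjusted p = 0.733). WTO against WTY gave 0 of 10 by both tools, against 0% of genes, and 0 at an unadjusted p under 0.05, beside 456 of 10333. The difference between the HRO-WTO and HRY-WTY differences was tested directly, and 2 of 10 receptors passed, against 1.14% of genes. Csf2rb differed by 1.05 ± 0.21 on the log2 scale (adjusted p = 0.0233) and Il4ra by 1.61 ± 0.31 (adjusted p = 0.0203). With Ddx3y status as a term Il4ra still passed (1.32, adjusted p = 0.0390 by edgeR) and Csf2rb did not (0.89, 0.0926). Csf2rb2 differed by 1.0 ± 0.46 and did not pass (adjusted p = 0.373), and no receptor passed without the pool term, without WBM_1, or without any one of HRY.4, HRY.5, WTO.4, WTY.3 and WTY.5.

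**Figure D3:**
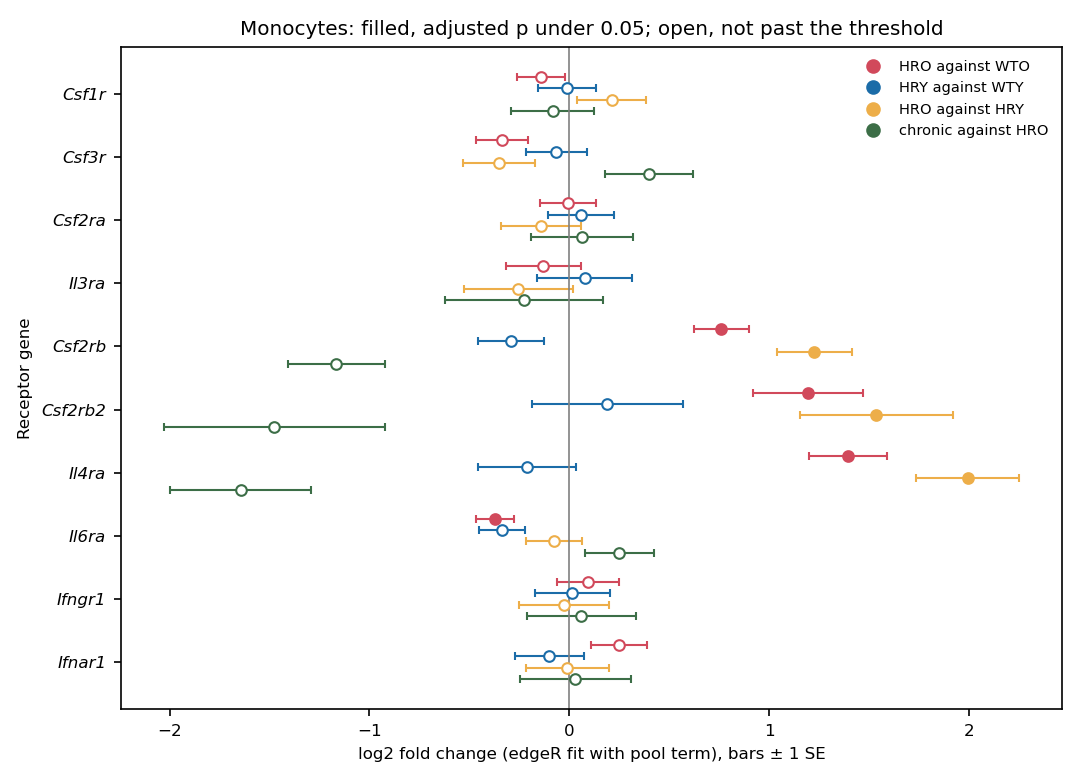
Fitted log2 fold changes of the 10 receptors in monocytes (horizontal axis, bars ± 1 SE) for 4 comparisons, filled where the adjusted p was under 0.05. In HRO against WTO, Il4ra (1.40), Csf2rb2 (1.19) and Csf2rb (0.76) are filled on the right and Il6ra (-0.37) on the left, and no HRY against WTY point is filled.

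In the chronic pair against HRO, 0 of 10 receptors passed in monocytes by edgeR's quasi-likelihood test, against 0% of genes. At an unadjusted p under 0.05 there were 3, beside 1171 of 10333 genes. DESeq2 called 2, Csf2rb and Il4ra. Csf2rb was at 103 and 108 CPM in HRO.5 and HRO.6, below all 6 HRO samples (log2 -1.17 ± 0.24, adjusted p = 0.0841). Il4ra was at 53.7 and 31.3 CPM (log2 -1.64 ± 0.35, adjusted p = 0.0917). No pool holds both groups, so this comparison rests on the 3 other samples of WBM_1 (HRY.4, WTO.3 and WTY.3) to set the pool term. Without HRO.7 and HRO.8, or without HRO.9, 2 receptors passed. The share of all genes passing in this comparison is not given for these settings or for DESeq2.

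Genes that act with these receptors were taken from 5 fixed lists, and counts refer to HRO against WTO monocytes, where 7.35% of all genes passed. Of 6 partner chains, 5 were tested and 2 were higher, beside 7.35% of all genes, with a list median log2 fold change of -0.05. These were Il13ra1, which pairs with Il4ra for IL-4 and IL-13 (log2 0.73 ± 0.17, adjusted p = 0.0150), and Il2rg, the common gamma chain (1.83 ± 0.46, adjusted p = 0.0274). Il2rg was at 115 and 106 CPM in HRO.7 and HRO.8 and at 18.2 to 44.9 in the other 4 HRO samples, and it overlapped WTO (6.32 to 38.0). Il13ra1 overlapped too, at 32.3 to 93.2 CPM in HRO and 24.2 to 54.3 in WTO. None of the partner chains passed without the pool term or without WBM_1.

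Of 12 JAK kinases and STAT factors, all tested, 1 was higher, a share near the 7.35% of all genes, with a list median of 0.07. It was Stat3, the main STAT of IL-6 and G-CSF signals, at 128 ± 35.8 CPM in HRO and 102 ± 23.2 in WTO (log2 0.39 ± 0.10, adjusted p = 0.0241). Of 8 feedback inhibitors, 6 were tested and 1 was higher, beside 7.35% of all genes, with a list median of 0.44. This was Socs3, which blocks signalling from the IL-6 and G-CSF receptors. Socs3 was at 25.9, 37.1 and 55.0 CPM in HRO and at 2.71, 2.56, 6.32 and 6.05 CPM in WTO.3 to WTO.6. The groups were far apart, with a log2 fold change of 3.50 ± 0.40 and an adjusted p of 0.000172, and Socs3 passed in all 29 alternatives. In HRY it was at 0.817 to 3.33 CPM and in the chronic pair at 29.1 and 10.4 CPM. The WTO.3 and HRY levels rest on very few Socs3 UMIs. Their monocyte sums held 368438 UMIs in WTO.3 and 901306 to 2448955 in the HRY samples. The sizes of Socs3 differences from such levels are imprecise. The differences between the HRO-WTO and HRY-WTY differences also passed for Il13ra1 (1.21 ± 0.25), Stat3 (0.77 ± 0.15) and Socs3 (4.48 ± 0.95). With Ddx3y status as a term, the last 2 did not pass (adjusted p = 0.0549 and 0.0644 by edgeR), nor did Il2rg in HRO against WTO (0.0792).

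Of 20 other growth factor and cytokine receptors, 12 were tested and 2 were higher, beside 7.35% of all genes, with a list median of -0.08. Il18rap, a chain of the IL-18 receptor, was at 13.2 to 35.5 CPM in HRO and 6.92 to 11.6 in WTO without overlap (log2 1.54 ± 0.29, adjusted p = 0.00578). Lifr, the receptor of leukaemia inhibitory factor, was at 14.9 to 47.9 and 7.37 to 35.3 CPM and overlapped (log2 1.17 ± 0.32, adjusted p = 0.0390). None of the 12 ligand genes reached the count needed for testing in monocytes. In HRO against HRY monocytes, 1 of 5 partner chains tested and 2 of 12 JAK and STAT genes passed, all higher, beside 3.54% of all genes. So did 2 of 6 feedback inhibitors and 2 of 12 other receptors. Among them were Jak3, a kinase that binds Il2rg (log2 1.70 ± 0.41), and Usp18, which restrains type I interferon signals (2.33 ± 0.47). Il1r2, a decoy for IL-1 (4.50 ± 1.07), was another. Ranges overlapped for each. Jak3 was at 6.72 to 15.8 CPM in HRO and 3.27 to 7.04 in HRY. Usp18 was at 1.28 to 49.2 and 8.04 to 16.6 CPM, and Il1r2 at 4.68 to 58.1 and 0 to 9.99. The HRY levels of Il1r2, with a median of 2.04 CPM, rest on few UMIs, and only WBM_3 holds both groups. The size of its difference is therefore imprecise.

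In mature neutrophils of HRO against HRY, 1 of the 9 receptors tested passed, Csf3r, which was lower, against 1.92% of genes. Csf3r was at 415, 761 and 1030 CPM (lowest, median and highest) in HRO and at 325, 2145 and 1489 CPM in HRY.4, HRY.5 and HRY.6. The groups overlapped because HRY.4, in pool WBM_1, was lower than every HRO sample. Within WBM_3, HRO.10 had 612 CPM against 2145 and 1489 in HRY.5 and HRY.6. The log2 fold change was -1.01 ± 0.22 (0.496-fold, adjusted p = 0.0220 by edgeR's quasi-likelihood test). The call was lost without the pool term, with Ddx3y status as a term, under the per-cell gate, and without HRO.10 or HRY.5. With the Ddx3y term the log2 fold change of Csf3r was -0.89 (adjusted p = 0.0876 by edgeR). Cluster make-up of this class also differed within WBM_3. Cluster 0 has Csf3r among its leading genes. It held 33.6% of HRO.10 mature neutrophils and 89.8% and 75.0% of those of HRY.5 and HRY.6. Cluster 14 held 60.8% against 5.12% and 19.0%. The part of this make-up in the Csf3r difference was not tested.

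Csf3r also differed between pools. In the 5 samples of WBM_1 it was at 269 to 386 CPM in mature neutrophils, in the 14 other samples at 415 to 2145, and the ranges did not overlap. WTY repeats this, with 307 CPM in WTY.3 (WBM_1) and 1845 and 1509 in WTY.4 and WTY.5 (WBM_3). Csf2ra was likewise at 47.7 to 101 CPM in WBM_1 and at 193 to 386 elsewhere. Cluster 3 held 96.9% (HRY.4) to 100% (WTO.3) of WBM_1 mature neutrophils and at most 4.99% (WTY.5) in the 14 other samples. The part of this make-up in the pool differences was not tested.

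**Figure D4:**
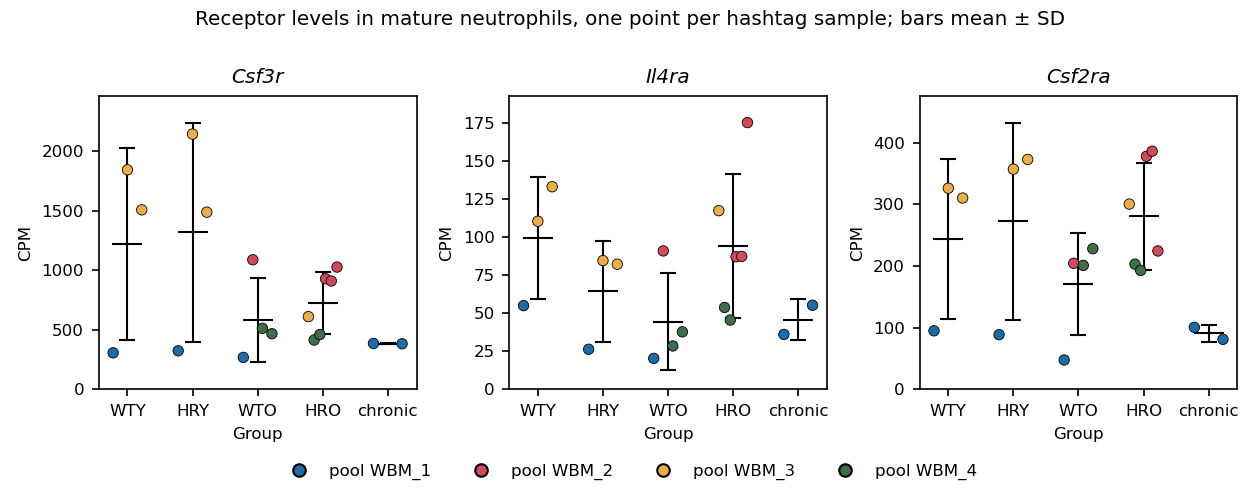
Level of Csf3r, Il4ra and Csf2ra in mature neutrophils (CPM, vertical axes from 0) by group, 1 point per hashtag sample coloured by pool, with the group mean and SD as bars. Csf3r and Csf2ra are lowest in the pool WBM_1 samples of every group that has one, and Csf3r reaches 2145 CPM in HRY.5.

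In mature neutrophils no receptor passed in HRO against WTO (0 of 9 by edgeR's quasi-likelihood test and by DESeq2, against 0.920% of genes). At an unadjusted p under 0.05 there was 1, beside 782 of 6520 genes. The 1 was Il4ra, at 94.6 ± 47.4 CPM in HRO and 44.5 ± 31.9 in WTO, with a log2 fold change of 0.63 ± 0.21 (adjusted p = 0.184). HRY against WTY gave 0 of 9 by both tools, against 0.0153% of genes, and 1 unadjusted, beside 343 of 6520. WTO against WTY gave 0, against 0.0460%, and 3 unadjusted, beside 695. The chronic pair against HRO gave 0, against 0%, and 2 unadjusted, beside 496. The difference of differences gave 0, against 0%, and 1 unadjusted, beside 561. The 9 leave out Il3ra, which was too low to test in these cells.

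Immature neutrophils gave 0 of 10 receptors in every comparison and under every alternative run. Beside edgeR's quasi-likelihood test, DESeq2 also called 0. Genes passing were 1.61% in HRO against WTO, 0.112% in HRO against HRY, 0.0558% in the difference of differences and 0% in the others. At an unadjusted p under 0.05, HRO against WTO had 1 receptor beside 1223 of 8956 genes, and HRO against HRY 1 beside 754. HRY against WTY had 1 beside 733, and WTO against WTY 2 beside 384. The chronic pair against HRO had 1 beside 508, and the difference of differences 1 beside 823. Csf2rb was at 113 ± 33.5 CPM in HRO and 86.7 ± 36.0 in WTO, and Il4ra at 23.0 ± 6.15 and 16.0 ± 7.45.

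Progenitors also gave 0 of 10 by edgeR's quasi-likelihood test and by DESeq2 in every comparison. Genes passing were 0.346% in HRO against WTO, 0.118% in HRO against HRY, 0.0395% in the difference of differences and 0% in the others. At an unadjusted p under 0.05, HRO against WTO had 2 receptors beside 1099 of 10127 genes, and HRO against HRY 2 beside 942. HRY against WTY had 2 beside 505, and WTO against WTY 0 beside 485. The chronic pair against HRO had 0 beside 549, and the difference of differences 2 beside 740. Csf2rb2 was at 8.11 ± 3.19 CPM in HRO and 4.38 ± 0.935 in WTO progenitors (log2 0.93 ± 0.41, adjusted p = 0.405).

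HRO against WTO could be tested in 4 further classes. In the B lineage, 2 of 8 receptors tested were lower, Csf3r and Ifnar1, against 11.2% of genes. Csf3r was at 2.82 to 4.26 CPM in HRO and 14.3 to 55.9 in WTO (log2 -2.68 ± 0.63, adjusted p = 0.0187). The HRO.9 and HRO.11 levels rest on very few Csf3r UMIs, in B lineage sums of 354152 and 673426 UMIs. The WTO.5 sum held 143225 UMIs, so the size of this difference is imprecise. For scale, Csf3r was at 22.2 ± 19.8 CPM in erythroid cells, and the source of the B lineage counts was not tested. Ifnar1 was at 13.4 to 33.9 CPM in HRO and 25.3 to 76.8 in WTO (log2 -1.23 ± 0.35, adjusted p = 0.0345). A cluster led by Ccl22 and Shisa8 with 493 cells, 78.7% of them from HRO.7, is part of this class. It held 98.7% of the B lineage cells of HRO.7, 96.3% of those of HRO.8 and none of the WTO samples, whose cells lie in clusters 15 and 18. No receptor passed with at least 50 cells per sample, without WBM_1 or without HRO.11.

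By edgeR's quasi-likelihood test and by DESeq2, 0 receptors passed in plasmacytoid dendritic cells (0 of 9, against 0.211% of genes), erythroid cells (0 of 7, against 0.275%) and T or NK cells (0 of 4, against 0%). At an unadjusted p under 0.05 these had 1, 2 and 2 receptors, beside 309 of 4742, 868 of 7991 and 444 of 4205 genes. In plasmacytoid cells Csf2rb2 was at 298, 291 and 127 CPM in HRO.7, HRO.8 and HRO.9 and at 23.4 and 124 in WTO.3 and WTO.4 (log2 0.94 ± 0.42, adjusted p = 0.736). In T or NK cells Il4ra had a log2 fold change of -1.09 ± 0.28 (adjusted p = 0.167), opposite in sign to monocytes, and the difference between the classes was not tested. The remaining classes had too few samples with enough cells.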

How the data were processed

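UMI counts per gene and barcode were used as the authors deposited them, raw and without normalisation, with Cell Ranger 3.0.0 for pool WBM_1 and 3.1.0 for the others, per the file headers. Hashtag counts were also deposited as raw counts. The genome build was mm10, per the submitters' processing notes, which also list Cell Ranger and Seurat. The gene annotation is not given in the sources used here.

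Hashtags were assigned with HTODemux (Seurat 5.3.0, quantile 0.99). Singlets with at least 300 genes and under 10% mitochondrial counts were kept. Cells were clustered in scanpy 1.11.5 with leidenalg 0.10.2 on 2000 variable genes, less the 4 receptors among them, 30 components and 20 neighbours at resolution 1, which gave 33 clusters. Clusters were named from 17 marker lists. Doublets were removed by hashtag only. Scrublet called 8.46% of barcodes in WBM_1 and 0% in WBM_3 and WBM_4, where it did not work.

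UMI counts were summed per sample and class (at least 20 cells) and fitted over all genes with edgeR 4.0.16 (R 4.3.3; filterByExpr, TMM, quasi-likelihood, Benjamini-Hochberg at 0.05), with group and pool as terms, over the 18 samples in groups. DESeq2 1.42.0 was an alternative. The fit was tested on simulated data for HRO against WTO monocytes (10084 genes, 200 changed). There 74% of 2-fold and 91% of 3-fold changes were recovered. The simulated counts had the same spread for all genes and no pool effect. These rates therefore cannot tell how often changes are recovered in the real data, where the calls rest on the pool term. The receptors and lists were chosen with earlier results of these data known. Named list genes are those past the threshold, at most 4 per list and comparison by smallest p.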

Additional observations from a re-analysis of the deposited data

Results flagged for a closer look

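Across 40 sets of receptor values (monocytes and mature neutrophils, HRO and WTO), 2 held a sample far from the others, and chance flags about 1 in 20 such sets. In mature neutrophils, Csf2ra was at 47.7 CPM in WTO.3, below the 201 to 228 CPM of the other WTO samples, and WTO.3 is the WTO sample of pool WBM_1. Csf2rb in the same cells was at 341 CPM in WTO.4, above 85.1 to 117 in the others, and WTO.4 is the WTO sample of pool WBM_2.

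In monocytes, the HRO-WTO difference was larger than the HRY-WTY difference by 1.05 (log2) for Csf2rb and by 1.61 for Il4ra, as tested directly in the report.

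HR.7 and HR.AE entered no comparison. In HR.7 monocytes, Csf2rb was at 233 CPM, Csf2rb2 at 25.2, Il4ra at 55.6 and Ifngr1 at 346, each above the highest WTO or WTY sample (159, 21.7, 45.2 and 285 CPM). In HR.AE basophil or mast cells, Csf1r was at 15.8 CPM, Csf2rb at 829, Csf2rb2 at 233 and Il4ra at 121. The WTY and WTO samples with enough of these cells had 13.8, 298, 55.4 and 6.92 CPM (WTY.3) and 9.93, 523, 139 and 62.9 CPM (WTO.4). Most of the HR.AE cells belong to a cluster led by Cpa3 and Cma1 that came wholly from WBM_2, so the cells of WTY.3, a WBM_1 sample, are of the other cluster in this class, led by Prss34 and Mcpt8. Both HR samples are single, so these values have no replicate.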

How the results depend on the processing

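The alternatives changed counts of receptors called as follows, with 0 direction reversed among called genes. In HRO against WTO monocytes (4 called), the count was 0 without the pool term, 2 with hashtags normalised within each cell and 2 without WBM_1, and 1 to 4 when single samples were left out. All genes passing numbered 62 of 10333, 326 of 10469, 411 of 10403, and 48 to 1551 in turn, beside 759 of 10333 in the main fit. For the comparisons that follow, all genes passing are not given per setting. A change in receptors called there cannot be told apart from a change in all calls. In HRO against HRY monocytes (3), it was 1 without the pool term and 0 to 3 with single samples left out. The chronic pair against HRO in monocytes (0) gave 2 with DESeq2, 3 without the filter on low counts, 1 without the pool term, 2 without HRO.7 and HRO.8, and 0 to 2 with single samples left out. In mature neutrophils, HRO against WTO (0) gave 1 without HRO.7 and HRO.8. HRO against HRY (1) gave 0 with the Ddx3y term, 0 with the per-cell gate, 0 without the pool term, 2 without the filter and 0 to 2 with single samples left out, WTO against WTY (0) gave 0 to 1 with single samples left out, and the chronic pair (0) gave 1 without the filter and 0 to 1 with single samples left out. In progenitors, HRO against HRY (0) gave 1 with the gate and 1 without the filter, and the chronic pair (0) gave 2 without the pool term. In the B lineage (2), the count was 0 with at least 50 cells and 0 without WBM_1, 1 with the gate, with hashtags within each cell, without HRO.7 and HRO.8 and without the Ccl22 and Shisa8 cluster, 4 without the filter, and 0 to 4 with single samples left out. Erythroid cells (0) gave 2 without the filter and 0 to 1 with single samples left out. T or NK cells (0) gave 0 to 1 with single samples left out, and plasmacytoid cells (0) gave 1 with the Ddx3y term and 0 to 1 with single samples left out. The difference of differences over the 4 main classes (2) gave 1 with the Ddx3y term, 0 with hashtags within each cell, 0 without the pool term, 0 without WBM_1, and 0 to 2 with single samples left out.

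Partner chains called in monocytes (2) numbered 1 with the gate, 0 with hashtags within each cell, 0 without the pool term, 0 without WBM_1 and 0 to 3 with single samples left out. JAK and STAT genes (1) numbered 0 under those same 4 settings, 3 without the filter and 0 to 3 with single samples left out. Feedback inhibitors (1) numbered 2 with DESeq2, the gate or no filter and 1 to 3 with single samples left out. Other receptors (2) numbered 1 with the gate, 1 with hashtags within each cell, 4 without the filter, 0 without the pool term and 0 to 4 with single samples left out. In the same HRO against WTO monocytes, 787 of 9845 genes passed with the gate, 1401 of 17690 without the filter and 980 of 10333 with DESeq2. The class with the highest share of cells stayed for 6 of 10 receptors without thinning.

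HRY and WTY share the numbers 4 and 5, which run on across groups and are not stated to pair samples. With that number as a replicate block, 0 receptors passed in each of the 4 main classes, as in the fit without it. The settings without WBM_1, without the Ccl22 and Shisa8 cluster, and with the unnamed cluster added to immature neutrophils (0 called, as before) were chosen after seeing the data. The cause of these changes was not tested. Pool and group overlap only in part, which limits every comparison: HRO and HRY meet in WBM_3 alone and the chronic pair meets HRO in no pool. WBM_1 was also processed with another Cell Ranger version. Depth limits the low receptors, since Csf2rb2 had under 3 UMIs in 50 and Il3ra in 36 of 159 class-by-sample sums.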

Other observations

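In immature neutrophils of HRO against WTO, 1 of 12 JAK and STAT genes tested passed, 1 of 6 feedback inhibitors, 1 of 9 other receptors, 0 of 3 partner chains and 0 of 1 ligand, beside 1.61% of all genes. Irf9, a part of the type I interferon transcription complex, was higher by 1.33 ± 0.28 on the log2 scale (adjusted p = 0.0229, edgeR's quasi-likelihood test). Usp18, the interferon-induced inhibitor of that receptor, was higher by 3.18 ± 0.77 (adjusted p = 0.0439), and Il1r2, the IL-1 decoy, by 1.02 ± 0.21 (adjusted p = 0.0201). Immature neutrophils of HRO.7 and HRO.8 lay mostly in cluster 5 (67.1% and 69.3%) and cluster 24 (26.6% and 26.9%). These held at most 12.0% and 2.61% of the other HRO samples, 0.995% and 0.663% of WTO.4, and no cells of the other WTO samples. The part of this make-up in these differences was not tested, and values per sample are not given for these genes. Irf9 was also higher in HRO against HRY, which shares the HRO samples, by 2.14 ± 0.40 (adjusted p = 0.0486), where 0.112% of genes passed. In mature neutrophils of HRO against HRY, where 1.92% of genes passed, 1 of 7 feedback inhibitors and 1 of 12 JAK and STAT genes passed. Usp18 was higher by 2.60 ± 0.51 (adjusted p = 0.0145) and Irf9 by 0.93 ± 0.24 (adjusted p = 0.0483).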
